A study of Brassica rapa with 9 samples.

Results

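The genes described are the Brassica rapa copies of SOC1 and FT, a small set of 5 gene IDs among the 41020 in the count files. They were taken by ID: Bra004928, Bra000393 and Bra039324 as the 3 SOC1 copies, and Bra022475 and Bra004117 as the 2 FT copies. All 5 IDs were present in all 9 libraries' files. The files hold IDs without names, and none of the 5 was found in the RefSeq gene table of the CAAS_Brap_v3.01 assembly, so the names rest on the selection by ID and no value here tests them.

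SOC1 and FT are floral integrators, the genes at which several flowering pathways of Arabidopsis meet. FT encodes a small phosphatidylethanolamine-binding protein that is made in leaf veins and moves to the shoot tip, where it acts with the bZIP factor FD. SOC1 encodes a MADS-box transcription factor that acts downstream of FT in the shoot tip. In Arabidopsis both genes are held down by the MADS-box repressor FLC until prolonged cold silences it. Phytochrome B, the main red-light receptor of light-grown plants, delays flowering in Arabidopsis, in part by lowering the level of CONSTANS, the activator of FT.

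The RNA came from whole seedlings of the cultivar Chiifu, 2 weeks old, grown on Murashige and Skoog medium with 0.5% sucrose under a condition abbreviated LD in the labels, and without heat treatment. The 3 genotypes had 3 libraries each. NT was the non-transgenic (wild-type) Kimchi cabbage, AtPHYB carried Arabidopsis thaliana phytochrome B, and G564E carried the AtPHYB mutant with glutamate for glycine at residue 564, a change known in Arabidopsis to heighten light sensitivity. The labels do not give the promoter of the transgenes, the number of lines or plants behind a genotype, or the time of day of harvest, and they do not say that replicates were separate plants, so the p-values here reflect only how much these libraries varied, which may be technical variation. The transgenic line and any difference in growth follow the genotype and cannot be told apart from the receptor. In whole seedlings, fewer cells of a type and less RNA per cell cannot be told apart either.

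Libraries held 15262884 to 20998541 counted reads. NT replicate 3 was closer to AtPHYB replicate 3 (Spearman correlation 0.978) than to NT replicates 1 and 2 (0.967 and 0.963), and G564E replicate 1 stood apart from replicates 2 and 3 (0.915 and 0.912, against 0.985 between those). Each called difference is therefore also given without these libraries.

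All 5 IDs had few reads. Over the 9 libraries together, the SOC1 copies had 628 reads and the FT copies 21. Bra039324 had 523 reads and Bra004928 had 101, which placed their mean CPM (counts per 1000000 reads after TMM scaling) above 23.0% and 3.20% of the 27967 tested genes, whose median was 12.3 CPM. Bra004117 had 20 reads, Bra000393 had 4 and Bra022475 had 1. These 3 IDs did not pass the filter on low counts and were not tested. Gene lengths were not used here, so these counts say how many reads support each ID and do not rank the copies by transcript number.

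**Figure D1:**
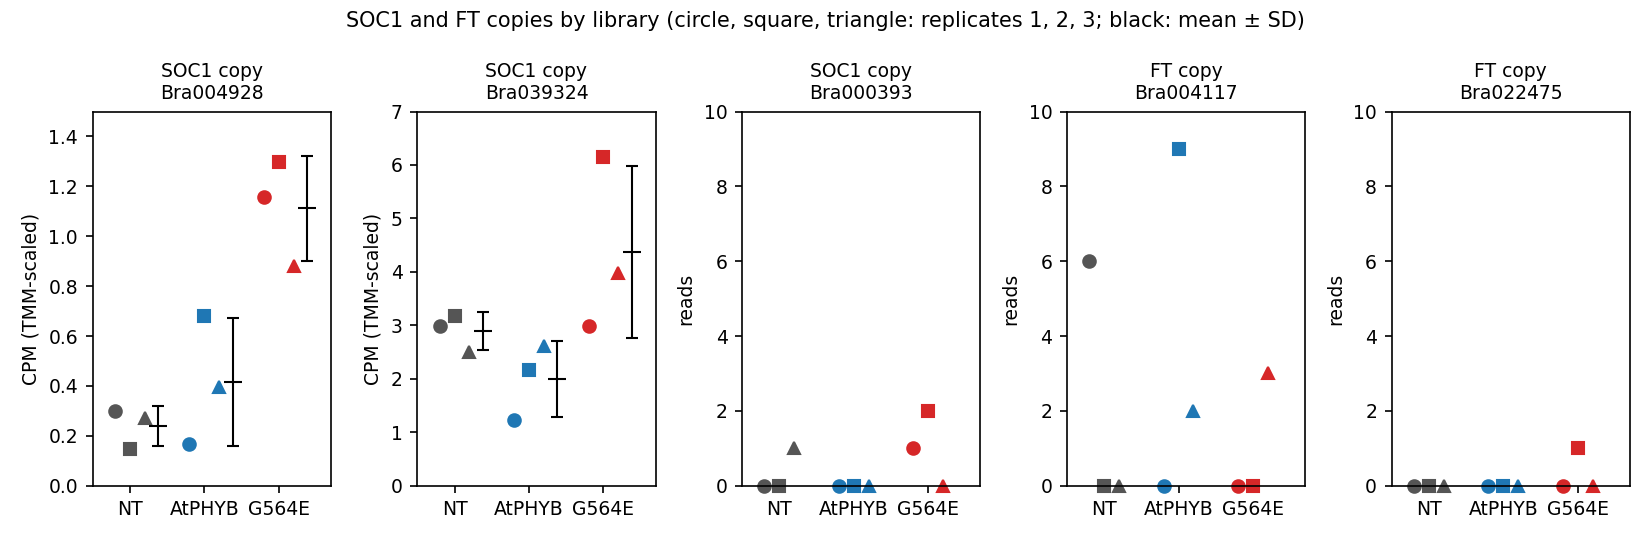
Level of each copy in each library, by genotype. The y axis is CPM (TMM-scaled) for Bra004928 and Bra039324, with the mean ± SD of 3 libraries in black. It is raw reads for the other copies. The G564E libraries of Bra004928 lie above every other library, and how many genes show this was not counted. The copies at the right have at most 9 reads in a library.

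Bra004928, the first SOC1 copy, was higher in G564E than in NT. It had 5, 3 and 5 reads in NT replicates 1, 2 and 3, which is 0.300, 0.147 and 0.272 CPM. In AtPHYB it had 3, 10 and 7 reads, or 0.166, 0.678 and 0.397 CPM. In G564E it had 26, 23 and 19 reads, or 1.16, 1.30 and 0.881 CPM. Every G564E library was above every library of both other genotypes, and the NT and AtPHYB libraries overlapped. Of all tested genes, 43.8% did not overlap between G564E and NT and 50.5% between G564E and AtPHYB, in either direction. How many genes had G564E above both was not counted. The mean was 0.239 ± 0.0814 CPM for NT, 0.414 ± 0.256 CPM for AtPHYB and 1.11 ± 0.212 CPM for G564E (SD, n = 3 each).

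The log2 fold change of Bra004928 in G564E minus NT was 2.20 ± 0.55 (SE), a 4.58-fold difference with a 95% interval of 1.94 to 10.8 (quasi-likelihood test of edgeR, adjusted p = 0.0187 after Benjamini-Hochberg). In this comparison 27% of all tested genes were called at an adjusted p under 0.05, 13.8% as higher, and 43.8% did not overlap between the genotypes. Among the 1840 tested genes whose mean CPM lay within 1.5 times that of Bra004928, 12.1% were called higher in G564E and 4.62% lower, with a median log2 fold change of 0.30. The filter required a count near 10 in 3 libraries, a level that 3 G564E libraries, 1 AtPHYB library and 0 NT libraries reached, so Bra004928 was tested only because it was high in G564E. The 1840 genes of like level passed the same filter, and how many did so through a single genotype was not counted. In a fit with no filter, over 35963 IDs of which 19.6% were called, its adjusted p was 0.0265 (edgeR).

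The call for Bra004928 in G564E minus NT rests on few reads and was lost without any 1 of 4 libraries. Leaving out NT replicates 1, 2 or 3 in turn gave adjusted p of 0.0516, 0.0700 and 0.0528, and leaving out G564E replicate 2 gave 0.0533 (edgeR), while the log2 fold change stayed between 1.93 and 2.37. Without G564E replicate 1, the library apart from its group, the adjusted p was 0.0228 at a log2 fold change of 2.16 (edgeR).

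Against AtPHYB, Bra004928 in G564E had a log2 difference of 1.43 ± 0.52 (SE), which missed the threshold (edgeR adjusted p = 0.0612, 95% interval of the log2 fold change 0.25 to 2.61). In G564E minus AtPHYB, 35% of tested genes were called and 50.5% did not overlap. In the fit with no filter its log2 fold change was 1.41 (edgeR adjusted p = 0.0879). The other fits keep the filter, which Bra004928 passed through G564E, so the calls among them are no support. The value was 1.04 without AtPHYB replicate 1 (edgeR adjusted p = 0.170) and 1.95 without AtPHYB replicate 2, the AtPHYB library with 10 reads (0.0490). It was 1.56 in limma-voom (adjusted p = 0.0406) and 1.87 when scaled by library size alone (edgeR adjusted p = 0.0158). Under that scaling the median of all tested genes shifted from a log2 value of 0.05 to 0.47, and the calls from 5140 up and 4637 down to 10786 up and 2469 down. In AtPHYB minus NT the log2 fold change of Bra004928 was 0.77 ± 0.58 (SE) (edgeR adjusted p = 0.596), and its 95% interval ran from -0.55 to 2.08. It was 1.15 without AtPHYB replicate 1, 0.24 without AtPHYB replicate 2 and 0.51 without NT replicate 2. Its order of level was NT, AtPHYB, G564E, and neither pair of neighbours passed the test.

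Bra039324, the SOC1 copy with the most reads, was higher in G564E than in AtPHYB. It had 50, 65 and 46 reads in NT replicates 1, 2 and 3, or 3.00, 3.18 and 2.50 CPM. In AtPHYB it had 22, 32 and 46 reads, or 1.22, 2.17 and 2.61 CPM. In G564E it had 67, 109 and 86 reads, or 2.98, 6.14 and 3.99 CPM. The lowest G564E library, replicate 1, was above all AtPHYB libraries but below NT replicates 1 and 2, and AtPHYB replicate 3 lay within the NT range. Between G564E and AtPHYB, 50.5% of tested genes did not overlap, in either direction. The mean was 2.89 ± 0.352 CPM for NT, 2.00 ± 0.711 CPM for AtPHYB and 4.37 ± 1.61 CPM for G564E (SD, n = 3 each).

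The log2 fold change of Bra039324 in G564E minus AtPHYB was 1.12 ± 0.36 (SE), a 2.18-fold difference with a 95% interval of 1.23 to 3.86 (edgeR adjusted p = 0.0405). Of all tested genes 18.4% were called higher in G564E than in AtPHYB, and of the 3425 genes within 1.5 times its mean CPM 23.2% were, with a median log2 fold change of 0.33. The call was close to the threshold. Leaving out an NT library, which is in neither genotype compared, ended it at nearly the same log2 fold change, with adjusted p of 0.0626, 0.0589 and 0.0530 for replicates 1, 2 and 3 (edgeR). So did leaving out an AtPHYB library, with 0.116, 0.0946 and 0.0534 in the same order, or either of G564E replicate 2 (0.141) and G564E replicate 3 (0.0707). Without G564E replicate 1 the log2 fold change was 1.33 and the adjusted p 0.0148 (edgeR). With no filter on low counts, where 25.8% of IDs were called, the adjusted p was 0.0521, and in a fit of the 6 libraries of G564E and AtPHYB alone it was 0.0758 (edgeR).

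Bra039324 passed the test in neither comparison with NT. In G564E minus NT its log2 fold change was 0.59 ± 0.36 (SE) (edgeR adjusted p = 0.243), with a 95% interval of -0.21 to 1.40. It was 0.26 without G564E replicate 2 and 0.80 without G564E replicate 1 (edgeR adjusted p = 0.0974). When scaled by library size alone it was 0.90 (edgeR adjusted p = 0.0739). In AtPHYB minus NT it was -0.53 ± 0.36 (SE) (edgeR adjusted p = 0.557), with a 95% interval of -1.36 to 0.29. It was -0.27 without AtPHYB replicate 1, -0.77 without AtPHYB replicate 3 and -0.63 without NT replicate 3. Its order of level was AtPHYB, NT, G564E, and neither pair of neighbours passed the test. Both of these comparisons use the same NT libraries.

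**Figure D2:**
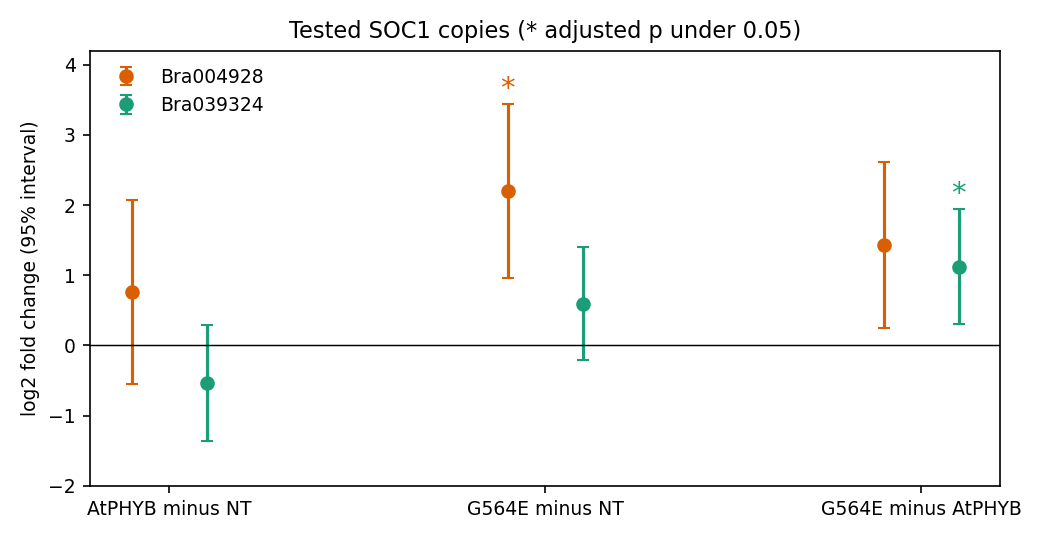
Log2 fold change (y axis) of the tested SOC1 copies in each comparison (x axis), with the 95% interval from the edgeR fit. The stars mark the 2 values with an adjusted p under 0.05: Bra004928 at 2.20 in G564E minus NT and Bra039324 at 1.12 in G564E minus AtPHYB. Bra004928 passed the filter on low counts only through G564E.

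In AtPHYB minus NT, 0 of the 2 tested SOC1 copies were called, and 0 had an unadjusted p under 0.05 (edgeR). DESeq2 and limma-voom also called 0 of the 2. Of the 27967 tested genes, edgeR called 53 (0.19%), DESeq2 961 and limma-voom 47 in that comparison, and 26.7% did not overlap. An unadjusted p under 0.05 was found for 3793 of the tested genes (edgeR). With 2 copies, 0 calls beside these counts are no result about SOC1. The interval of each copy includes both no difference and a change of more than 2-fold, upward for Bra004928 and downward for Bra039324.

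**Figure D3:**
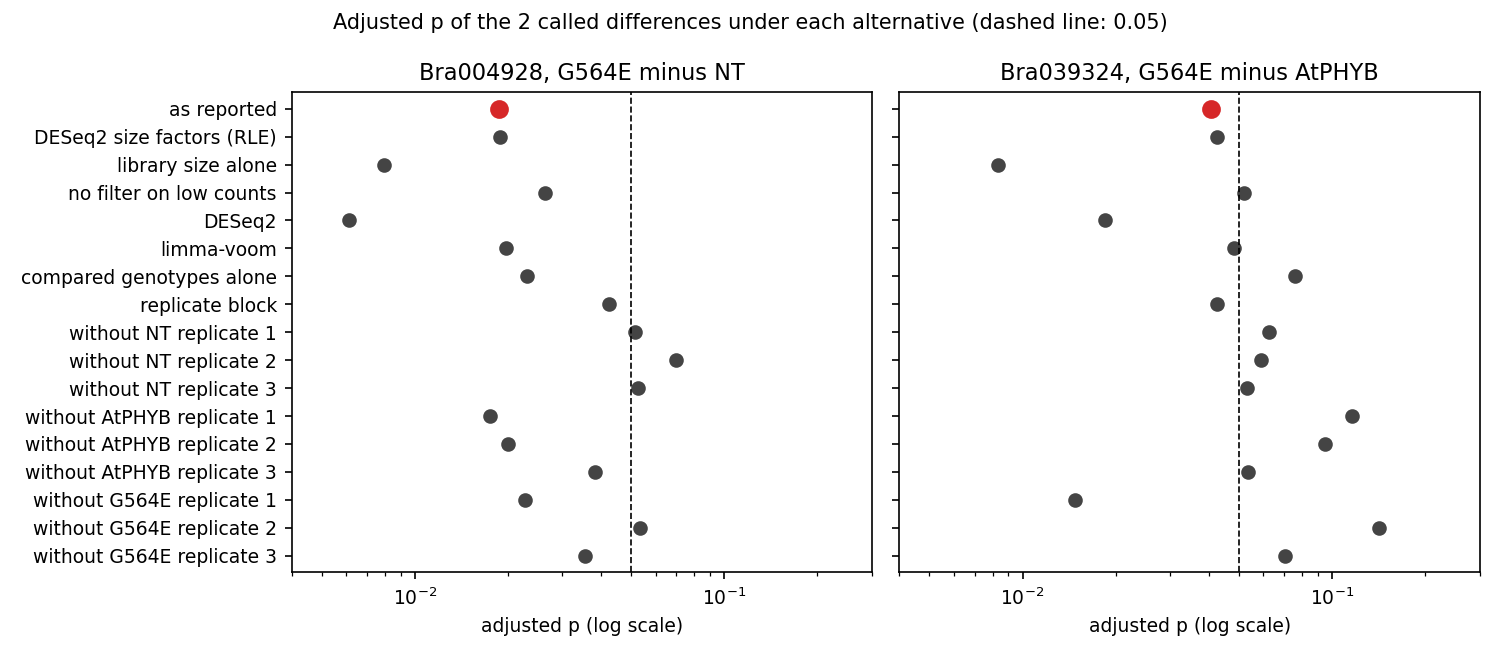
Adjusted p (x axis, log scale) of the 2 called differences under each alternative (y axis), with the reported value in red and the dashed line at 0.05. The values run from 0.00612 to 0.0700 for Bra004928 in G564E minus NT and from 0.00830 to 0.141 for Bra039324 in G564E minus AtPHYB. For Bra004928 only the fit with no filter (edgeR adjusted p = 0.0265) leaves out the filter that it passed through G564E. Its other values are no support.

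The balance between the tested SOC1 copies was then compared within libraries, as a share of reads, which does not depend on scaling. Bra004928 made up 9.09%, 4.41% and 9.80% of the reads of Bra004928 and Bra039324 together in NT replicates 1, 2 and 3. In AtPHYB its share was 12.0%, 23.8% and 13.2%. In G564E its share was 28.0%, 17.4% and 18.1%. All libraries of both transgenic genotypes were above all NT libraries, and AtPHYB and G564E overlapped. Among single tested genes, 26.7% did not overlap between AtPHYB and NT, and 43.8% between G564E and NT. How often the share of other gene pairs separates the genotypes was not examined. The counting error is wide beside these differences: the share of 12.0% in AtPHYB replicate 1 rests on 3 of 25 reads, with an exact (Clopper-Pearson) 95% interval of 2.55% to 31.2%. Such intervals hold no variation between libraries. They are too narrow even for counting error where reads were copied by PCR, since such reads are not independent molecules.

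On the log2 scale with 0.5 CPM added to each copy, the ratio of Bra004928 to Bra039324 was -2.20 ± 0.282 for NT, -1.45 ± 0.314 for AtPHYB and -1.55 ± 0.427 for G564E (SD, n = 3 each). Bra004928 was itself below 0.5 CPM in every NT library and in 2 of the 3 AtPHYB libraries, so these ratios rest in large part on the added value. The ratio was higher by 0.75 in AtPHYB than in NT and by 0.65 in G564E than in NT. With 0.1 CPM added these differences were 1.06 and 1.33, and without G564E replicate 1 the G564E difference was 0.40. The differences of 0.75 and 0.65, from all libraries with 0.5 CPM added, each had a two-sided exact permutation p of 0.1. That is the smallest that 3 against 3 libraries allow. Their adjusted p was 0.24 over the 12 copy ratios and comparisons tested, so the design cannot reach an adjusted p under 0.05. Between G564E and AtPHYB the ratio differed by -0.11 (exact permutation p = 0.9), and with 0.1 CPM added the sign turned, to 0.26. Ratios that involve Bra000393 or the FT copies rest on the added 0.5 CPM still more, and nothing is concluded from them.

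**Figure D4:**
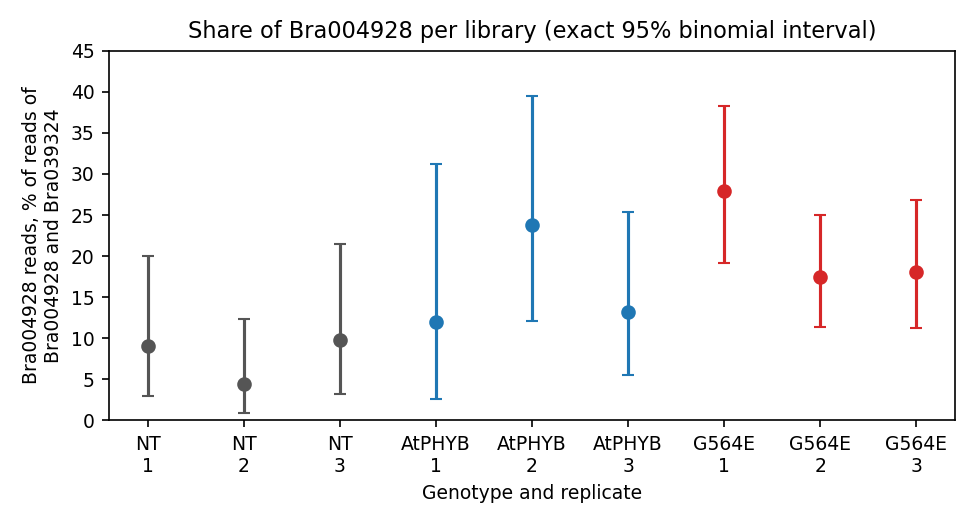
Share of Bra004928 in the reads of both tested SOC1 copies (y axis, percent) in each library (x axis), with exact 95% binomial intervals. The NT libraries lie at 4.41% to 9.80%, the AtPHYB libraries at 12.0% to 23.8% and the G564E libraries at 17.4% to 28.0%.

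Bra000393, the SOC1 copy with the fewest reads, had at most 3 reads in any genotype. NT replicate 3 had 1 read of it, G564E replicate 1 had 1 and G564E replicate 2 had 2, and the remaining libraries had 0. In AtPHYB the 0 reads of 3 libraries allow a level of up to 0.0595 CPM (3 counts over the group). All 3 genotypes were at or under that floor of 3 counts, so no fold is given.

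The FT copies were barely detected. Bra022475 had a single read in all 9 libraries, in G564E replicate 2. Its 0 reads in NT and in AtPHYB allow up to 0.0540 and 0.0595 CPM in those groups. Of all IDs, 1252 had the same total of 1 read and 5057 had none.

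Bra004117, the other FT copy, had 6, 0 and 0 reads in NT replicates 1, 2 and 3. It had 0, 9 and 2 reads in AtPHYB and 0, 0 and 3 reads in G564E. Reads were thus seen in 1 NT, 2 AtPHYB and 1 G564E library, and all genotypes overlapped at 0. Over each group's summed reads the level was 0.108 CPM in NT, with an exact 95% counting interval of 0.0397 to 0.235. It was 0.218 CPM in AtPHYB, with an interval of 0.109 to 0.391, and 0.0486 CPM in G564E, with an interval of 0.0100 to 0.142. The summed reads of AtPHYB over those of G564E, 11 against 3, gave a ratio of 4.49 after scaling. Its exact 95% interval, 1.19 to 25.1, is for counting alone and holds no variation between libraries. AtPHYB replicate 2 alone held 9 of the 11 reads. The corresponding ratio of NT to G564E was 2.22, with an interval of 0.475 to 13.7. In the fit with no filter on low counts, Bra004117 had an adjusted p of 0.856 for AtPHYB against NT, where 0.15% of IDs were called. Its adjusted p was 0.698 for G564E against NT and 0.402 for G564E against AtPHYB (edgeR). Neither FT copy was called in that edgeR fit, where the lowest unadjusted p of either was 0.246, and no other tool was run on them. What size of difference these reads could show was not tested.

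The reads of Bra004117 were unevenly spread over libraries. It was at 0 in 5 of the 9 libraries, while 778 IDs with a total of 16 to 24 reads were at 0 in a median of 2 libraries, and 12.5% of them in 5 or more. Within AtPHYB, replicate 2 had the most reads of Bra004117 and also the most of Bra004928, whereas it was between the others for Bra039324.

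Summed over copies, the SOC1 level was 3.30, 3.33 and 2.83 CPM in NT, 1.39, 2.85 and 3.01 CPM in AtPHYB, and 4.19, 7.55 and 4.87 CPM in G564E, for replicates 1, 2 and 3 in each. The G564E libraries lay above all others, and AtPHYB replicates 2 and 3 overlapped NT. Among single tested genes, 43.8% did not overlap between G564E and NT, and 50.5% between G564E and AtPHYB. The share of genes with G564E above both other genotypes was not counted. The FT sum was 0.360, 0 and 0 CPM in NT, 0, 0.610 and 0.114 CPM in AtPHYB, and 0, 0.0564 and 0.139 CPM in G564E. Each genotype had at least 1 library with no FT read. No test was made of these sums.

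For the most-read copy of each gene, the most similar pattern over the 9 libraries was sought among 19338 other IDs with a mean of at least 5 CPM, as the smallest root mean square difference of centred log2 CPM. For Bra039324 this was Bra019122, at 0.187, against a spread of 0.572 of Bra039324 around its own mean. The next ID was nearly as close, at 0.190, so Bra019122 does not stand out. Bra019122 stood at 24.3 ± 5.96 CPM for NT, 15.8 ± 3.43 CPM for AtPHYB and 33.8 ± 11.5 CPM for G564E (SD, n = 3 each). For Bra004117 the closest was Bra002283, at 0.624 against a spread of 0.996, a looser likeness to a copy whose pattern rests on 20 reads. Neither ID has a name in the files or the gene table.

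Other genes of the flowering pathway, a list of 39 names including FLC, CONSTANS, FD and LFY, could not be followed, because none of the names was paired with an ID of the count files.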

How the data were processed

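Libraries were made with a stranded mRNA kit, per the labels' protocols. The authors deposited raw counts of reads per gene ID, 1 library per file. FastQC 0.11.8, Trimmomatic 0.39, TopHat2, HTSeq and edgeR were used, per the submitters' processing notes. The sources used here do not give settings, genome build, annotation or the strand option of counting, so reads shared between the copies, or with antisense genes, were not examined. Of 41020 IDs, 1 matched the 51589 genes of the RefSeq table. No sequence of the copies was used.

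The analysis of the counts used edgeR 4.0.16 in R 4.3.3, with filterByExpr at default settings, TMM scaling and quasi-likelihood tests from 1 fit of the genotype means to all 9 libraries, two-sided, with Benjamini-Hochberg adjustment over 27967 genes per comparison. Standard errors are the log2 fold change over the square root of F. Floors are 3 counts. The model was also run on simulated data, whose outcome is not given here and is no support for the calls described. Alternatives were DESeq2 1.42.0, limma-voom (limma 3.58.1), other scalings, no filter, fits of the compared genotypes alone, a replicate block, and single libraries left out. The genes named are the 5 IDs and, for the copy of SOC1 and of FT with the highest mean CPM, the ID of most similar pattern. The genes and lists were chosen with earlier results of these data known.

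Libraries of the same replicate number deviated together between AtPHYB and G564E (correlations of 0.41, 0.31 and 0.12 for replicates 1, 2 and 3). This likeness comes from the data and not from a label. The reported tests use no pairing, and the replicate block was run only as an alternative. Deviations were taken from the mean of each genotype's 3 libraries, among which G564E replicate 1 stood apart, so the 3 correlations are not independent. Between NT and AtPHYB (-0.08, 0.03 and 0.09) and NT and G564E (-0.15, -0.17 and 0.02), libraries of the same number did not deviate together.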

Additional observations from a re-analysis of the deposited data

How the results depend on the processing

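The fold changes of the tested SOC1 copies kept their direction in every alternative run, and low read numbers limit their precision. For Bra004928 in G564E minus NT, 7 of 7 other settings kept the call, as did 5 of 9 fits without a single library (log2 fold change 1.93 to 2.37). Of these fits, only the one with no filter (edgeR adjusted p = 0.0265) leaves out the filter that Bra004928 passed through G564E. The calls kept in the others are no support. For Bra039324 in G564E minus AtPHYB, 5 of 7 settings kept the call and 1 of 9 fits without a single library did (0.79 to 1.36). It was lost with no filter on low counts (1.12) and in the compared genotypes alone (1.13). Bra004928 in G564E minus AtPHYB was called with library size alone (1.87) and limma-voom (1.56), and in 1 of 9 fits without a single library (1.04 to 1.95). In AtPHYB minus NT alone, Bra004928 did not pass the filter and has no value.

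The replicate block changed no call of a SOC1 copy: the adjusted p was 0.0426 for Bra039324 and 0.0940 for Bra004928 in G564E minus AtPHYB, and 0.0423 for Bra004928 in G564E minus NT (edgeR). With the block, the 53 genes called in AtPHYB minus NT became 17; these libraries share only a number, and for 6 of 9 libraries the closest deviations in another genotype were those of the same number.

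The 53 genes became 961 with DESeq2 and 199 in the compared genotypes alone, and 6 (without NT replicate 1) to 783 (without NT replicate 3) with a library left out. The 7545 genes of G564E minus NT became 4829 (without NT replicate 1) to 10702, and the 9777 of G564E minus AtPHYB became 6063 (without AtPHYB replicate 2) to 12878, with 6366 without AtPHYB replicate 3. In G564E minus NT, scaling by library size alone called 7832 genes up and 2180 down, against 3847 and 3698, and the median of all tested genes shifted from a log2 value of 0.02 to 0.34. The cause of these shifts was not tested.

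The log2 ratio of Bra004928 to Bra039324 in G564E minus AtPHYB turned from -0.11 to 0.26 with 0.1 CPM added, and lay between -0.35 and 0.0616 with single libraries left out. The ratio of Bra022475 to Bra004117 lay between -0.48 and 0.11 in AtPHYB minus NT, and between -0.0666 and 0.34 in G564E minus NT, with single libraries left out. Bra022475 had 1 read in all, so that ratio rests mostly on the added 0.5 CPM and on the reads of Bra004117. The copies that did not pass the filter were tested only with no filter.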
